A study of Mus with 14 samples.

Results

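Donor blood progenitors that lack one or the other receptor of tumour necrosis factor alpha (TNF) were compared on a Dnmt3a-mutant background. The comparison used 7 of the 14 single-cell libraries of the study: 4 labelled Dnmt3a;Tnfr2KO and 3 labelled Dnmt3a;Tnfr1KO, each from 1 mouse. Of the 66895 cells kept in the whole study, 38251 were in these libraries. A cell was kept with at least 1000 unique molecular identifiers (UMIs, each standing for 1 captured transcript), at least 500 genes and less than 10% of UMIs from mitochondrial genes. UMIs were then added up per mouse, over all its cells and within each cell class, so that the mouse was the replicate. The other libraries, Dnmt3a (4 mice) and MxCre (3 mice), entered the model of the spread between mice and were used to show which of the receptor genotypes departs from the other mice.

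The labels describe the same transplantation and sort for both groups. Per the labels, CD45.2+ donor marrow was mixed with CD45.1+ competitor marrow and given to aged, lethally irradiated CD45.1+ hosts, which received a single poly(I:C) injection, the inducer of the Mx1-Cre recombinase, one month later. Marrow of these hosts went into further aged, irradiated recipients, harvested at 20 weeks, and CD45.2+ cells positive for Kit and negative for lineage markers were sorted. Mx1-Cre acts in blood cells and also in other interferon-responsive cells, and after transplantation only the donor blood cells carry the genotype. The labels give neither the Dnmt3a allele nor the receptor alleles, strain of origin or age at harvest, and they do not say whether mice of a group had a common primary donor. If they had, the mice are not independent and the p-values below cover only the spread between libraries.

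TNF signals through a pair of receptors. Tnfr1, encoded by Tnfrsf1a, is found on most cells, carries a death domain and can start both NF-kB signalling and cell death. Tnfr2, encoded by Tnfrsf1b, is largely restricted to blood and endothelial cells, lacks a death domain and acts through Traf2 and Birc2/Birc3. Blood cells with DNMT3A mutations expand with age, and inflammatory signals are among the influences studied on that expansion. The study's title names the question: how each receptor bears on stem cell fitness and on the output of lineages.

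The Tnfr1KO libraries had 82341270 to 127808814 UMIs and the Tnfr2KO libraries 121295817 to 162869740, so 3 of the 4 Tnfr2KO libraries were deeper than every Tnfr1KO library. Kept cells numbered 3092 to 6150 and 5624 to 7265, with a median of 17545 to 25685 UMIs per kept cell over both groups. Any pair of the 7 libraries had 3 to 17 cell barcodes in common, at most 0.284% of the smaller library. One library stood apart: 66.7% of the barcodes of Tnfr1KO replicate 1 were kept, against 85.0% to 94.4% in the other 6, and 34.7% of its kept cells lay in clusters that took no class name, against 16.3% to 28.9%. Among the libraries that only entered the model, some of the Dnmt3a group also stood apart. Dnmt3a replicate 1 kept 26.9% of its barcodes and held 90.2% of the cells of a cluster led by histone genes. Dnmt3a replicate 4 held 96.75% of the cells of a cluster named B-lymphoid progenitor-like. Neither library was left out singly, and fits with only the 7 libraries are given below. Clustering gave 35 clusters. Those named by their markers were called stem and multipotent progenitor (HSC/MPP)-like, granulocyte, monocyte, megakaryocyte and erythroid progenitor-like, maturing neutrophil-like, basophil/mast progenitor-like, B-lymphoid progenitor-like, mature B cell-like and T/NK/innate lymphoid-like. In one of the megakaryocyte progenitor-like clusters, Ms4a2 and Fcer1a, genes of mast cells and basophils, were also among the leading genes.

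The targeted genes were examined first. Levels are UMIs per 1e+06 UMIs of the library (CPM) after TMM scaling of the library size, a correction for differences in RNA composition, and are given for replicates 1 to 3 of Tnfr1KO and 1 to 4 of Tnfr2KO. Tnfrsf1b stood at 13.03, 10.4 and 16.7 CPM in Tnfr1KO and at 4.35, 5.45, 5.01 and 5.35 CPM in Tnfr2KO. Every Tnfr2KO mouse was below every Tnfr1KO mouse, and the transcript was reduced, not absent (log2 fold change of Tnfr2KO against Tnfr1KO -1.41, SE 0.169, edgeR adjusted p = 0.00165). Dnmt3a and MxCre mice averaged 13.7 and 13.7 CPM, near the Tnfr1KO level.

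Tnfrsf1a did not mark the mice labelled Tnfr1KO. It stood at 42.2, 33.8 and 38.4 CPM there and at 53.2, 39.1, 59.2 and 68.0 CPM in Tnfr2KO, with ranges that overlap (log2 fold change 0.53, SE 0.189, edgeR adjusted p = 0.779). Tags of a 3′ assay can lie outside the deleted part of a gene, so this level checks nothing, and every direction given for these mice rests on their label. The Dnmt3a transcript stood at 21.5, 22.01 and 22.4 CPM against 24.2, 22.8, 25.1 and 22.5 CPM (0.10, adjusted p = 1.00). Tnf itself was low, at 6.75, 1.85 and 1.91 CPM against 2.34, 1.34, 1.48 and 1.86 CPM (-0.999, adjusted p = 1.00), with the highest value in Tnfr1KO replicate 1.

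Within cell classes, the Tnfrsf1b difference was called in 3 of 6. In granulocyte progenitor-like cells the gene had 15.4, 17.4 and 22.2 CPM in Tnfr1KO and 4.02, 7.07, 5.06 and 4.8005 CPM in Tnfr2KO (-1.81, SE 0.177, edgeR adjusted p = 2.07e-05). In monocyte progenitor-like cells it had 12.5, 11.9 and 16.7 against 3.98, 4.75, 3.98 and 5.18 CPM (-1.61, SE 0.169, adjusted p = 1.06e-04). In HSC/MPP-like cells it had 8.34, 10.1 and 12.9 against 4.43, 5.34, 6.17 and 5.37 CPM (-0.98, SE 0.175, adjusted p = 0.0251). This last call is the least secure: it was lost without Tnfr1KO replicate 2 (adjusted p = 0.105) or 3 (0.195) and without Tnfr2KO replicate 1 (0.0891), 2 (0.0851) or 4 (0.0645). In erythroid and megakaryocyte progenitor-like and maturing neutrophil-like cells the log2 differences of Tnfrsf1b were 0.38, -0.34 and -0.48 and did not pass the test.

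For Tnfrsf1a the groups did not overlap in 3 classes, with more in Tnfr2KO, and none of the 3 differences passed the edgeR test. The same was true of the groups for 4.46% of genes tested in monocyte, 4.53% in granulocyte and 7.29% in HSC/MPP-like cells. In monocyte progenitor-like cells it had 40.6, 39.6 and 41.0 CPM in Tnfr1KO and 60.8, 54.2, 61.9 and 74.1 CPM in Tnfr2KO (log2 difference 0.64). This did not pass the test by edgeR (adjusted p = 0.126), and passed by DESeq2 (0.00687) and by edgeR without a filter on low counts (0.0356). The differences in granulocyte progenitor-like and HSC/MPP-like cells were 0.50 and 0.43 (edgeR adjusted p = 0.418 and 0.349).

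Over all cells, 31 of 15615 genes were called at a Benjamini-Hochberg adjusted p below 0.05 in edgeR's quasi-likelihood test, which is 0.199% of the genes tested: 20 higher in Tnfr2KO (0.128%) and 11 lower (0.0704%). At an unadjusted p below 0.05 there were 652 genes, a smaller share of the 15615 tested than that threshold lets through by chance. The median log2 difference of all genes was 0.02. The count was 20, 19, 19 and 18 without Tnfr1KO replicate 2 or 3 or Tnfr2KO replicate 1 or 2, and 19 with equal cell numbers. DESeq2 called 102 (52 higher, 50 lower). With only the 7 libraries edgeR called 19 higher and 21 lower, and with a replicate block (the replicate number as a term of the model) 19 in each direction. These calls lay mostly in one place. Of the 31 genes, 19 were on chromosome 4, which held 884 of the genes tested, so 2.15% of that chromosome's genes were called. All 19 started between Tnfrsf1b at 145.21 Mb and C1qtnf12 at 155.96 Mb, a span of 10.75 Mb near the distal end of the chromosome. Positions are those of RefSeq for GRCm38.p6, which matched 93.5% of the genes tested. Of the 19 genes, 15 were higher in Tnfr2KO and 4 lower.

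**Figure D1:**
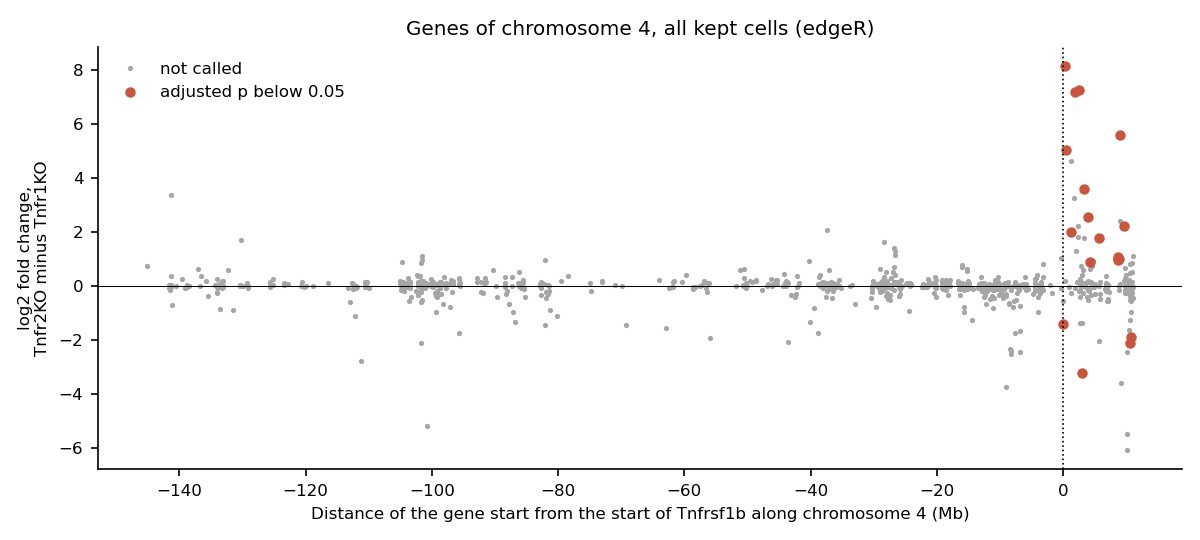
Log2 fold change of Tnfr2KO against Tnfr1KO over all cells (vertical axis) for each gene tested on chromosome 4, by the distance of its start from that of Tnfrsf1b in Mb (horizontal axis). Filled points are the 19 called genes, which all lie from 0 to 10.75 Mb, and grey points are genes not called; the fitted values of genes with very few UMIs in a group depend on the prior count.

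The neighbours of both targeted receptor genes were counted. Among the 90 other tested genes starting within 5 Mb of Tnfrsf1b, 9 were called (10%), 8 of them higher in Tnfr2KO, against 21 of the 15524 genes elsewhere (0.135%). The median absolute log2 difference was 0.18 within this window and 0.10 outside it. Around Tnfrsf1a on chromosome 6, where the genotypes also differ by their labels alone, none of 118 genes within 5 Mb and none of 190 within 10 Mb was called. On chromosome 4 the calls over all cells were on one side: 0 of 33 genes in the 5 Mb before Tnfrsf1b, 10 of 58 from 0 to 5 Mb (17.2%, with Tnfrsf1b itself), 7 of 42 from 5 to 10 Mb (16.7%) and 2 of 44 from 10 to 15 Mb (4.55%). In these last 3 bins, 39.7%, 31.0% and 29.5% of genes had an unadjusted p below 0.05. Within classes a few calls lay before Tnfrsf1b, 2 in HSC/MPP-like, 2 in granulocyte and 1 in monocyte progenitor-like cells. No linkage or strain marker was examined, so the origin of this pattern was not tested.

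Some of these genes lie close to Tnfrsf1b (chr4:145212368-145246870). Zfp990 (chr4:145510759-145538251) and Zfp992 (chr4:146449030-146469440) encode zinc finger proteins of a large KRAB family on this arm, whose members are alike in sequence, so reads shared between copies may be split or lost in counting and their levels are uncertain. Zfp990 had 0.0806, 0.0780 and 0.0524 CPM in Tnfr1KO and 12.3, 13.5, 30.5 and 25.2 CPM in Tnfr2KO (log2 fold change 8.14, SE 0.569, edgeR adjusted p = 1.15e-05). It was nearly silent in all Tnfr1KO mice and plainly present in all Tnfr2KO mice, at levels that fell into a lower and a higher pair. Zfp992 had 4.57, 4.89 and 5.47 against 19.9, 20.96, 22.4 and 16.5 CPM (2.002, SE 0.213, adjusted p = 8.16e-04), about 4.00-fold more in Tnfr2KO. Zfp534, of the same family, had 1 UMI over all Tnfr1KO mice and 377 over all Tnfr2KO mice, a ratio per UMI of 201.9 (95% exact interval 36.0 to 7995.6, counting error only).

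The called gene of this span with the lowest fold change was Fbxo44 (chr4:148152799-148160183), an F-box protein that chooses targets for ubiquitin ligases. It had 0.937, 1.26 and 0.918 CPM in Tnfr1KO and 0.0864, 0.119, 0.101 and 0.139 CPM in Tnfr2KO (-3.20, SE 0.254, edgeR adjusted p = 3.70e-05). Ctnnbip1 (chr4:149518241-149566437), which keeps beta-catenin from binding its TCF partners, had 11.5, 11.8 and 11.1 against 20.4, 20.8, 20.9 and 23.3 CPM (0.89, SE 0.146, adjusted p = 0.0202). The groups are well apart for both genes. The Ctnnbip1 call over all cells was nonetheless lost in 6 of the 7 fits that leave out a mouse, all but that without Tnfr2KO replicate 3, with adjusted p of 0.0611 to 0.150.

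Farther along, 3 genes rose by about the same factor. A430005L14Rik (chr4:153957237-153961925) had 61.5, 59.6 and 54.2 CPM in Tnfr1KO and 118, 103, 127 and 141 CPM in Tnfr2KO (1.06, SE 0.145, edgeR adjusted p = 0.00467). Dffb (chr4:153964447-153975121), the nuclease that cuts DNA in apoptosis, had 10.1, 10.7 and 9.77 against 18.8, 20.1, 18.3 and 24.2 CPM (1.00, adjusted p = 0.00334). Lrrc47 (chr4:154011803-154021512) had 21.3, 24.8 and 24.2 against 52.5, 46.4, 39.6 and 48.7 CPM (1.00, adjusted p = 0.00467). The groups did not overlap for any of the 3 genes, and 891 of all genes tested (5.71%) had groups that did not overlap. Calls of Dffb and Lrrc47 were kept under all 17 alternatives tried, and that of A430005L14Rik was lost in 1, without Tnfr1KO replicate 3 (1.02, adjusted p = 0.0511).

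Another TNF receptor family gene lies in this stretch. Tnfrsf14 (chr4:154918487-154928620), also known as HVEM, binds LIGHT and lymphotoxin alpha as well as the inhibitory receptor BTLA. It had 2.17, 1.24 and 1.95 CPM in Tnfr1KO and 9.21, 7.31, 8.83 and 8.01 CPM in Tnfr2KO (2.22, SE 0.258, edgeR adjusted p = 0.00132), about 4.67-fold more, and kept its call under all 17 alternatives. Dnmt3a and MxCre mice averaged 1.90 and 1.53 CPM, so that the Tnfr2KO mice stood above the other groups for Tnfrsf14.

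At the far end, Pusl1 and C1qtnf12 were lower in Tnfr2KO. Pusl1 (chr4:155888857-155891858), a pseudouridine synthase-like gene, had 26.2, 26.2 and 21.6 CPM in Tnfr1KO and 7.19, 6.18, 4.12 and 5.29 CPM in Tnfr2KO (-2.11, SE 0.188, edgeR adjusted p = 1.17e-04). C1qtnf12 (chr4:155962312-155966629), which encodes the secreted protein adipolin, had 25.9, 63.5 and 40.2 against 7.98, 7.79, 14.9 and 16.0 CPM (-1.89, SE 0.325, adjusted p = 0.0339). Its Tnfr1KO values spread more widely, and the call was lost without Tnfr1KO replicate 2 (adjusted p = 0.201) or 3 (0.125) and without Tnfr2KO replicate 1 (0.113) or 2 (0.119). It was also lost with only the 7 libraries (0.0990), with a replicate block (0.103) and without the mature B, T/NK and unnamed clusters (0.0587). C1qtnf12 had its highest level in erythroid progenitor-like cells, which were 4.13%, 14.7% and 8.02% of kept cells in the Tnfr1KO mice. In HSC/MPP-like cells the same mice lay closer together, at 21.7, 23.5 and 23.7 CPM before TMM scaling. The part of the mix of classes in the spread over all cells was not tested.

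**Figure D2:**
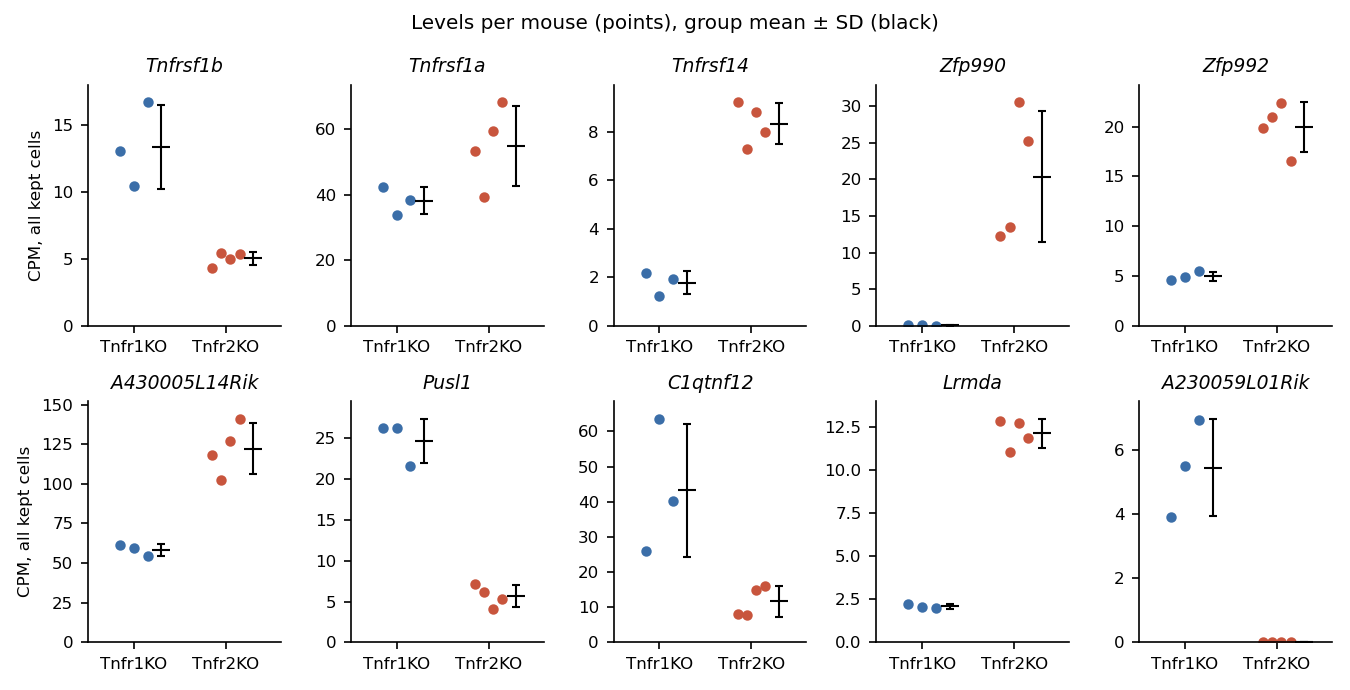
Level of 10 genes over all cells in each mouse (CPM, 1 point per mouse, bar at the group mean) for Tnfr1KO (3 mice) and Tnfr2KO (4 mice). Tnfrsf1a is the one gene shown whose groups overlap; Tnfrsf14, Zfp990, Zfp992, A430005L14Rik and Lrmda are higher in Tnfr2KO, and Tnfrsf1b, Pusl1, C1qtnf12 and A230059L01Rik are lower.

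The other groups show which genotype departs from the rest. For all 19 called genes of chromosome 4, the means of both Dnmt3a and MxCre mice were nearer to Tnfr1KO than to Tnfr2KO. A430005L14Rik averaged 52.9 CPM in Dnmt3a and 54.3 CPM in MxCre, against 58.5 in Tnfr1KO and 122 in Tnfr2KO. Pusl1 averaged 22.5 and 22.6 CPM, against 24.7 and 5.70. These are levels without a test. Of the 12 called genes elsewhere or without a matched position, 4 were nearer to Tnfr1KO, 4 nearer to Tnfr2KO, and 4 were split between the groups.

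The gene with the smallest adjusted p over all cells was Lrmda, on chromosome 14 (chr14:22019504-23056093), a leucine-rich repeat gene known from melanocyte differentiation. It had 2.26, 2.05 and 2.01 CPM in Tnfr1KO and 12.9, 11.1, 12.8 and 11.9 CPM in Tnfr2KO (2.53, SE 0.153, edgeR adjusted p = 3.66e-06), with little spread in either group. Dnmt3a and MxCre mice averaged 15.3 and 18.2 CPM, so here the Tnfr1KO mice were the ones that stood apart. A230059L01Rik showed the same division in the opposite sense. It had 3.91, 5.51 and 6.95 CPM in Tnfr1KO and no UMI in any of the 4 Tnfr2KO mice, against 1412 UMIs in Tnfr1KO, so it was at least 879-fold lower (against a floor of 3 UMIs over the group, edgeR adjusted p = 0.00132). Dnmt3a and MxCre mice averaged 0.0454 and 0.0321 CPM. Both genes kept their calls under all 17 alternatives.

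CAAA01118383.1, a gene for which the reference held no position, had 38.4, 32.7 and 32.2 CPM in Tnfr1KO and 14.2, 12.9, 14.6 and 17.6 CPM in Tnfr2KO (-1.22, SE 0.139, edgeR adjusted p = 0.00132). Dnmt3a and MxCre mice averaged 28.8 and 28.9 CPM, on the Tnfr1KO side. The remaining calls outside chromosome 4 were of low level. They included Phf11b, with 3.98, 4.16 and 4.65 CPM against 2.15, 1.87, 1.63 and 2.26 CPM (-1.11, adjusted p = 0.0379, 0.0628 to 0.221 when any one of the 7 mice was left out, and 0.0650 to 0.128 without a low count filter, with equal cell numbers or without lymphoid clusters), and the B cell genes Blk and Ms4a1, described with the lymphoid cells.

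Within classes, 49 genes were called in at least 1 class and 25 of them were not called over all cells. All 56 genes called in any fit had the same direction in each fit that called them, and 30 of the 56 were on chromosome 4. For a gene called in a single fit, such as the 7 called over all cells and in no class, this holds by definition. The sums over all cells also include the cells of each class, so these fits are not independent. Of the 14 genes called in at least 3 classes, 10 were on chromosome 4: Zfp990, Zfp992, Fbxo44, A430005L14Rik, Dffb, Lrrc47, Pusl1, C1qtnf12, Tnfrsf14 and Tnfrsf1b. The other 4 were Lrmda, A230059L01Rik, CAAA01118383.1 and Rab6b. Some of these class calls were not secure. In megakaryocyte progenitor-like cells, of 14 alternatives, Pusl1 lost its call in 10, Tnfrsf14 in 9, Fbxo44 in 7 and Rab6b in 6. Without that class Tnfrsf14 and Rab6b would not reach 3. Zfp990 and Lrmda kept their calls under all 14 in each class that called them. Classes differ in cell number, and counts of calls are not compared between them.

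In HSC/MPP-like cells, the class that holds the stem cells, 25 of 12546 genes were called (0.199%), 13 higher and 12 lower. At an unadjusted p below 0.05 there were 703, a share near what that threshold lets through by chance. The clusters within this class had different weights in the groups. Cluster 4 held 26.6% to 37.98% of its cells in Tnfr1KO and 40.1% to 47.7% in Tnfr2KO, cluster 13 held 16.9% to 19.2% and 11.2% to 15.1%, and cluster 6 the rest. The part of this shift in the changes of the class was not tested. Of the 25 calls, 14 were on chromosome 4, and 15 (60% of the class's calls) were also called over all cells. The count fell to 9 without Tnfr1KO replicate 2, 13 without Tnfr1KO replicate 3, 15 without Tnfr2KO replicate 1 and 14 without Tnfr2KO replicate 2. Lrmda had 2.67, 2.56 and 2.99 CPM in Tnfr1KO and 14.4, 13.9, 13.2 and 11.2 CPM in Tnfr2KO (2.27, SE 0.155, edgeR adjusted p = 5.76e-07). Among genes not called over all cells, Noc2l (chr4:156234655-156247616), a nucleolar protein that binds p53 and inhibits histone acetylation, had 103, 116 and 112 against 69.2, 68.6, 65.3 and 62.8 CPM (-0.73, SE 0.0876, adjusted p = 7.70e-04). For both genes the gap between the groups was wider than the range within either.

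Other chromosome 4 genes called in this class are of known function. Dhrs3 (chr4:144892534-144928209), which reduces retinaldehyde and so limits retinoic acid, had 24.4, 26.3 and 31.6 CPM in Tnfr1KO and 43.8, 48.9, 44.4 and 51.9 CPM in Tnfr2KO (0.79, SE 0.134, edgeR adjusted p = 0.0176). Agtrap, a binding partner of the angiotensin receptor, had 38.7, 33.6 and 33.6 against 21.96, 22.6, 20.4 and 27.4 CPM (-0.60, adjusted p = 0.0380). Kif1b, a kinesin motor, had 3.48, 5.19 and 4.02 against 9.15, 7.46, 8.50 and 10.1 CPM (1.04, adjusted p = 0.0409). None of the 3 had overlapping groups, as was true of 7.29% of genes tested in the class. The Dhrs3 call was lost without Tnfr1KO replicate 1 (0.105) or 2 (0.125) and without Tnfr2KO replicate 2 (0.0645) or 4 (0.0503). That of Agtrap was lost without any mouse but Tnfr2KO replicate 4 (adjusted p = 0.0741 to 0.181), and that of Kif1b without any but Tnfr2KO replicate 3 (0.053 to 0.200). Agtrap was also lost with doublets kept (-0.48, 0.205), at Leiden resolution 2 (0.0603), with only the 7 libraries (0.0907) and with a replicate block (0.0831). Keeping doublets also changed the clusters. The HSC/MPP-like class then took in a cluster of 6891 cells led by Tespa1, Adgrl4 and Cd34. In the main clustering a cluster of 5879 cells, with Tespa1 and Cd34 among its leading genes, took no name. Calls lost in this class with doublets kept cannot be laid to the doublets alone. Kif1b was lost with only the 7 libraries (0.0783) and with the block (0.190), and Dhrs3 with the block (0.0520). Noc2l kept its call under all 14 alternatives.

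Farther from Tnfrsf1b, Tie1 (chr4:118471191-118489849), a receptor tyrosine kinase of endothelium and stem cells, had 5.45, 5.41 and 5.86 CPM in Tnfr1KO and 11.9, 13.6, 8.39 and 9.99 CPM in Tnfr2KO (0.99, edgeR adjusted p = 0.0267). This call was lost in the 5 fits without Tnfr1KO replicate 1 (adjusted p = 0.116), 2 (0.166) or 3 (0.113) or Tnfr2KO replicate 1 (0.103) or 2 (0.0851), and also with doublets kept (0.131), with only the 7 libraries (0.0907) and with a replicate block (0.0851). MxCre mice averaged 23.2 CPM. Rab6b on chromosome 9, a small GTPase of Golgi traffic, had 2.32, 2.49 and 2.53 against 0.143, 0.0472, 0.349 and 0.0413 CPM (-4.40, SE 0.749, adjusted p = 0.0176). Without Tnfr1KO replicate 2 or 3 or Tnfr2KO replicate 1, 2 or 4, its adjusted p ran from 0.0630 to 0.0851, and with the block it was 0.0645. Npnt, the extracellular matrix protein nephronectin, had no UMI in Tnfr1KO and 109 UMIs in Tnfr2KO, at least 16.8-fold more, with 2.22, 1.75, 0.233 and 1.61 CPM in the 4 mice. Its call was lost without any one of the Tnfr1KO mice (adjusted p = 0.0755 to 0.139), with only the 7 libraries (0.145) and with the block (0.102).

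A gene of antigen presentation and an immunoglobulin gene were lower in HSC/MPP-like cells of Tnfr2KO, 1 of the 12 MHC class II genes being called (8.33%, beside 0.199% of all genes of the class) and none of 11 mature B cell genes (median -0.10). H2-Eb1, a chain of MHC class II, had 5.79, 16.5 and 12.3 CPM in Tnfr1KO and 1.72, 2.27, 2.21 and 3.26 CPM in Tnfr2KO (-2.26, edgeR adjusted p = 0.00861), and the call was lost without Tnfr1KO replicate 2 (-1.90, adjusted p = 0.0993). Iglc1, an immunoglobulin light chain constant gene, had 4.63, 2.41 and 4.14 against 0, 0.0472, 0 and 0.124 CPM (-5.81, adjusted p = 0.0137), and its call was lost without Tnfr1KO replicate 3 (0.0655) or Tnfr2KO replicate 1 (0.0619) or 2 (0.0746). Before TMM scaling, Cd74, the invariant chain of MHC class II, had 8.20, 29.8 and 15.6 CPM against 3.12, 3.63, 5.93 and 4.49 CPM in this class, with groups that did not overlap. H2-Aa did not overlap either, at 8.20, 20.1 and 16.2 against 4.39, 3.54, 6.27 and 7.12 CPM, as was true of 7.29% of genes in the class. Of B cell markers, Ms4a1 had 0, 0.353 and 0.668 CPM and none in Tnfr2KO, and Cd79a had 0.213, 2.12 and 0.890 against 0.133, 0.0931, 0.784 and 1.21 CPM, with overlap. Iglc1 also had UMIs in other classes of Tnfr1KO replicate 1: 7.08 CPM in erythroid, 3.16 in megakaryocyte, 2.12 in monocyte and 2.05 in granulocyte progenitor-like cells. Igkc, another light chain constant gene, overlapped in HSC/MPP-like cells, at 0.532, 7.98 and 1.89 against 0.332, 0.745, 5.93 and 1.66 CPM. In granulocyte progenitor-like cells it had 2.19 to 7.90 CPM in Tnfr1KO, 97.4 CPM in Tnfr2KO replicate 4 and 0.276 to 1.93 CPM in the rest of Tnfr2KO. The part of free RNA or of B cells among the sorted cells in these differences was not tested.

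In granulocyte progenitor-like cells, 28 of 12484 genes were called (0.224%), 18 higher (0.144%) and 10 lower (0.0801%), of which 19 were on chromosome 4. Lrmda had 2.05, 2.02 and 1.86 CPM against 13.9, 13.5, 14.2 and 12.3 CPM (2.76, SE 0.121, edgeR adjusted p = 6.38e-10). Tnfrsf14 had 1.87, 1.07 and 2.06 against 10.5, 10.6, 9.62 and 9.77 CPM (2.57, SE 0.182, adjusted p = 4.48e-07). Ctnnbip1 had 4.92, 5.99 and 5.14 against 18.4, 20.1, 14.7 and 21.03 CPM (1.80, SE 0.197, adjusted p = 6.86e-05). For all 3 genes every Tnfr2KO mouse was over 2-fold above any Tnfr1KO mouse, and the groups did not overlap for 4.53% of genes tested in the class. Dhrs3 had 5.96, 6.35 and 4.998 against 24.9, 24.5, 15.03 and 39.7 CPM (2.18, SE 0.265, adjusted p = 2.75e-04). Pink1 (chr4:138313409-138326296), the mitochondrial kinase that marks damaged mitochondria for removal, was lower, at 28.4, 28.1 and 26.6 against 17.9, 14.5, 11.6 and 19.8 CPM (-0.80, adjusted p = 0.0227). Without any one of the Tnfr1KO mice or without Tnfr2KO replicate 2 the Pink1 call was lost (0.0781 to 0.119), as it was with only the 7 libraries (0.152).

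In monocyte progenitor-like cells, 33 of 12449 genes were called (0.265%), 24 higher (0.193%) and 9 lower (0.0723%), with 18 on chromosome 4. The groups did not overlap for 4.46% of the genes tested. Without Tnfr1KO replicate 2 or 3 the count was 19 or 15. Tnfrsf14 had 2.73, 1.61 and 2.11 CPM against 12.1, 9.28, 10.6 and 10.5 CPM (2.28, SE 0.235, edgeR adjusted p = 9.55e-05), close to its level in granulocyte progenitor-like cells. Slc25a33, a mitochondrial carrier of pyrimidine nucleotides, had 7.51, 9.32 and 8.06 against 13.9, 14.2, 14.6 and 13.7 CPM (0.77, SE 0.121, adjusted p = 0.00731), and was called in granulocyte progenitor-like cells too (0.86). Its monocyte call was lost without Tnfr1KO replicate 1 (0.0709) or 3 (0.0688). Plec on chromosome 15, the cytoskeletal linker plectin, had 35.6, 38.6 and 45.7 against 21.7, 23.4, 26.03 and 20.01 CPM (-0.81, SE 0.135, adjusted p = 0.0119). Without Tnfr1KO replicate 2 or 3 or Tnfr2KO replicate 1 its adjusted p was 0.0536, 0.113 or 0.0509.

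In megakaryocyte progenitor-like cells, 12 of 11547 genes were called (0.104%), 6 in each direction (0.052%), with 7 on chromosome 4, beside 5.31% of genes whose groups did not overlap. Plec had 67.8, 62.7 and 69.2 CPM against 35.2, 41.7, 37.8 and 39.1 CPM (-0.79, SE 0.135, edgeR adjusted p = 0.0292), and its call was lost without any one of the 7 mice (adjusted p = 0.0639 to 0.275), at Leiden resolution 2 (0.260), with doublets kept (0.105) and with a replicate block (0.0930). Zfp992 had 3.41, 3.47 and 3.80 against 15.3, 17.1, 20.4 and 15.5 CPM (2.25, SE 0.212, adjusted p = 7.73e-05). The count fell to 4, 4 and 3 without Tnfr1KO replicate 1, 2 or 3, and to 7 and 6 without Tnfr2KO replicate 1 or 2.

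In erythroid progenitor-like cells, 5 of 10971 genes were called (0.0456%): Zfp990 and Zfp992 higher (0.0182%), and Fbxo44, A230059L01Rik and C1qtnf12 lower (0.0273%). All 5 were also called over all cells. Under the alternatives the erythroid call of Fbxo44 was lost in 9 of 13, and those of Zfp992 and A230059L01Rik in 5 of 14 each. Zfp990 kept its call in all 14. For 3.24% of genes tested in the class the groups did not overlap. C1qtnf12 stood in this class at 156, 259 and 280 CPM in Tnfr1KO and 17.4, 10.6, 28.6 and 38.1 CPM in Tnfr2KO (-3.30, SE 0.401, adjusted p = 0.00626), about 9.86-fold less. Dnmt3a and MxCre mice averaged 223 and 193 CPM in the same class, and this call was kept under all 14 alternatives. The count was 2 without Tnfr1KO replicate 1, 2 or 3 or Tnfr2KO replicate 2, and 3 without Tnfr2KO replicate 3. In this class all 14 secondary granule and S100 genes tested were below 0 (median -2.47), as were 26 of 30 erythroid and heme genes (-0.25). None of these was called, and the median of all genes of the class was 0.01.

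In maturing neutrophil-like cells, the smallest class tested, edgeR called 0 of 7023 genes (0.0%), and DESeq2 also called 0. At an unadjusted p below 0.05 there were 219, a smaller share than that threshold lets through by chance. Without Tnfr2KO replicate 1 edgeR called 3. The groups did not overlap for 4.26% of these genes.

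**Figure D3:**
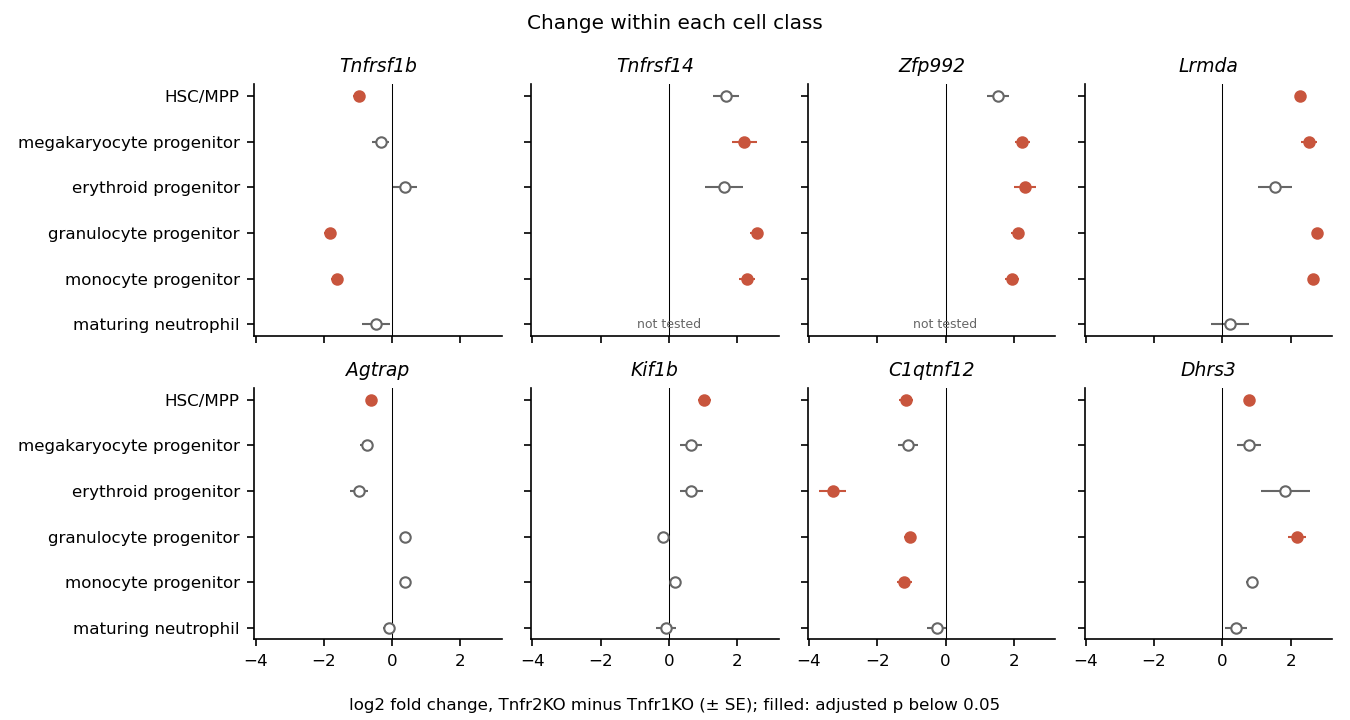
Log2 fold change of Tnfr2KO against Tnfr1KO (horizontal axis, with ± 1 SE) for 8 genes in 6 cell classes (vertical axis). Filled points passed the edgeR test and open points did not. Lrmda and Zfp992 are higher in most classes, C1qtnf12 has its lowest fold change in the erythroid class (-3.30), and Agtrap is below 0 in HSC/MPP-like cells (-0.60) and above 0 in granulocyte progenitor-like cells (0.38).

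Whether a change differs between classes was tested itself, with limma on each mouse's difference between a pair of classes, for 15 pairs. The p-values were adjusted over the genes of each pair and not over the 15 pairs. Agtrap differed most plainly. It fell in HSC/MPP-like cells, while in granulocyte progenitor-like cells it had 49.4, 45.1 and 43.5 CPM in Tnfr1KO and 57.4, 57.7, 57.7 and 66.2 CPM in Tnfr2KO, a difference of 0.38 in the opposite direction that did not pass the edgeR test (adjusted p = 0.434). The change was 0.99 higher on the log2 scale in granulocyte progenitor-like than in HSC/MPP-like cells (limma adjusted p = 0.00113), and lower in HSC/MPP-like than in monocyte progenitor-like cells (difference of changes -1.002, adjusted p = 1.86e-04). Kif1b rose in HSC/MPP-like cells and not in granulocyte progenitor-like cells, where it had 16.4, 22.6 and 19.2 against 17.001, 17.4, 18.5 and 15.1 CPM (difference of changes -1.22, limma adjusted p = 0.0132). For 10 of the 15 pairs no gene passed this test.

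The TNF pathway was described by lists of its members. Of 22 tested genes of the TNF receptor superfamily, Tnfrsf14 rose and Tnfrsf1b fell over all cells (9.09%, beside 0.199% of all genes), and the list's median log2 difference was -0.01, beside 0.02 for all genes. Tnfrsf1b is the targeted gene, and Tnfrsf14 lies in the stretch of chromosome 4 that holds most calls. None of 11 ligands of the superfamily was called (median 0.02). Of 39 genes that act just below the receptors, such as adaptors of the Traf and Ripk families and caspase 8, none was called (median -0.04). Their summed level was 961, 924 and 957 CPM in Tnfr1KO and 940, 928, 933 and 929 CPM in Tnfr2KO. Among their members, Casp8, which lay outside the rule for naming genes, had a mean of 67.4 CPM ± 1.87 (SD, n = 3) against 67.2 CPM ± 3.21 (SD, n = 4). Traf1 was the 1 member of 39 whose groups did not overlap, beside 5.71% of all genes tested. It had 1.63, 1.35 and 0.721 CPM against 0.475, 0.448, 0.392 and 0.591 CPM (-1.37, not called).

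None of 44 tested NF-kB subunits and targets was called over all cells or in any class, and neither was any of 32 immediate early genes, which cells switch on within minutes of a stimulus. Their medians were below that of all genes, at -0.46 and -0.34. Both rested on Tnfr1KO replicate 1. That mouse had the highest level of the 7 for 24 of 44 NF-kB genes and 25 of 32 immediate early genes. The NF-kB genes summed to 1314 CPM in it, against 848 and 832 CPM in the other Tnfr1KO mice and 833, 780, 895 and 853 CPM in Tnfr2KO. Nfkbia, the inhibitor that NF-kB itself induces, had 227, 39.7 and 42.9 CPM against 49.4, 39.96, 41.9 and 54.0 CPM (-1.15, edgeR adjusted p = 0.995). The chemokine gene Cxcl2 had 29.8, 0.334 and 0.590 against 1.13, 0.420, 2.32 and 0.860 CPM. From the mean CPM of each group, the medians of the 2 lists were -0.43 and -0.34 with all 7 mice and -0.07 and 0.01 without Tnfr1KO replicate 1. The low share of kept barcodes of this library is given above, and its part in these levels was not tested.

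Among 30 regulators of stem cells none was called, with a median of 0.16 and 24 members above 0. Their sum was 883, 1077 and 941 CPM in Tnfr1KO and 1073, 1132, 943 and 1040 CPM in Tnfr2KO, with overlap. No gene was called among 46 genes of S phase (median 0.02), 52 of G2 and M phase (0.05), 43 of the interferon response (-0.04), 19 writers and erasers of DNA methylation (0.04), 17 of the BCL2 family (-0.15), 27 cytokine receptors (-0.04) or 22 homing and adhesion receptors (0.00). By class, G2 and M phase genes went both ways, with none called. In HSC/MPP-like cells 45 of 52 were below 0 (median -0.10), and in maturing neutrophil-like cells 49 of 51 (-0.34). In granulocyte progenitor-like cells 46 of 52 were above 0 (0.13). The weights of clusters within these classes also differed, as given above for HSC/MPP-like cells. Cluster 0 averaged 48.3% of granulocyte progenitor-like cells in Tnfr1KO and 54.2% in Tnfr2KO. Cluster 18 averaged 51.3% and 39.2% of maturing neutrophil-like cells, and the mice overlapped for both clusters. Tnfr2KO replicate 2 had only 20 maturing neutrophil-like cells. The part of cluster weights in these counts was not tested. Of 22 monocyte and macrophage genes none was called, and all 22 were below 0, with a median of -0.48. Their sum was 1972, 1293 and 1831 CPM against 1568, 1133, 1593 and 1361 CPM, so the groups overlap. Without Tnfr1KO replicate 1 the median from mean CPM went from -0.48 to -0.27.

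**Figure D4:**
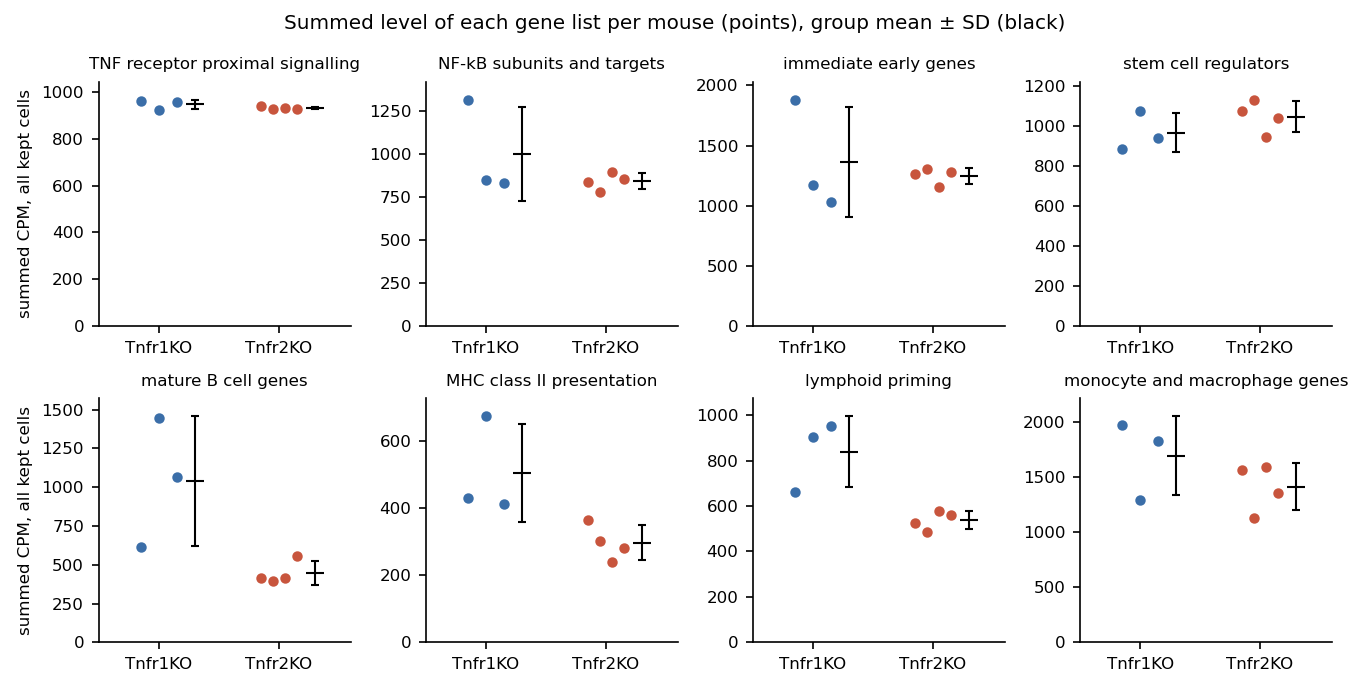
Summed CPM of the members of 8 gene lists in each mouse (vertical axis; 1 point per mouse, bar at the group mean) for Tnfr1KO (3 mice) and Tnfr2KO (4 mice). Tnfr1KO replicate 1 stands above the other 6 mice for NF-kB genes (1314 CPM) and immediate early genes (1883 CPM), while the mature B cell list is highest in Tnfr1KO replicate 2 (1446 CPM).

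In 5 lists of lymphoid genes 2 genes were called over all cells, both lower, beside 0.199% of all genes tested. Blk, a kinase of the B cell receptor pathway, was the 1 gene called of 20 in the list of pre-B receptor and B-lineage genes (list median -1.97), and Ms4a1, which encodes CD20, the 1 of 19 mature B cell genes (median -3.00). Ms4a1 had 0.917, 14.2 and 7.64 CPM in Tnfr1KO and 0.242, 0.189, 0.0402 and 0.0656 CPM in Tnfr2KO (-5.80, edgeR adjusted p = 0.0473). Of the 12 genes of MHC class II presentation none was called, 11 were below 0 and the median was -0.70. None of 29 genes of T, NK and innate lymphoid cells (median -1.59) nor of 20 lymphoid priming genes (-0.71) was called. Outside the lymphoid lists, 9 of 11 genes of non-blood marrow cells (median -1.58) and 14 of 16 dendritic cell genes (-0.43) were also below 0. None of these was called, and the summed levels of both lists overlapped between the groups. Within HSC/MPP-like cells, where none of 15 tested lymphoid priming genes was called, 14 of them were below 0 (median -0.52), and 11 of the 12 MHC class II genes were below 0 (median -0.31), beside a median of 0.01 for all genes of that class. Over all cells the lymphoid priming genes summed to 659, 903 and 953 CPM in Tnfr1KO and 526, 486, 578 and 561 CPM in Tnfr2KO, with groups that did not overlap.

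The sort took cells positive for Kit and negative for lineage markers, and the part of sort purity in the shares of lymphoid cells below was not tested. Mature B cell-like cells were 0.423%, 11.3% and 4.30% of kept cells in Tnfr1KO and 0.0964%, 0.178%, 0.0328% and 0.0621% in Tnfr2KO. That is 26, 403 and 133 cells against 7, 10, 2 and 4, and for Tnfr1KO replicate 2 the exact binomial interval of the share is 10.2% to 12.3%. T/NK/innate lymphoid-like cells were 0.179%, 1.28% and 0.550% against 0.0688%, 0.0178%, 0.0492% and 0.109%. B-lymphoid progenitor-like cells were 0.0976%, 0.530% and 0.226% against 0.0275%, 0%, 0.0328% and 0.0932%, where 0 of 5624 cells allows a share of up to 0.0533%. In each of these 3 classes every Tnfr1KO mouse was above every Tnfr2KO mouse. The exact two-sided permutation p was 0.0286, the smallest that 35 arrangements of 3 against 4 mice can give, and 0.0952 after adjustment over the 10 classes, so none passed. At this smallest p, an adjusted p below 0.05 needs most of the 10 classes to reach it together. The test therefore could not pass for 3 classes alone. In B-lymphoid cells the lowest Tnfr1KO and the highest Tnfr2KO mouse were 6 cells each.

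The sums were also fitted without lymphoid cells. Without the clusters named mature B cell-like and T/NK/innate lymphoid-like, 27 of the 31 calls remained, and Blk and Ms4a1 were no longer among them (-2.64 and -3.22, both edgeR adjusted p = 1.00). With the unnamed clusters left out too they were -2.35 and -4.41 (adjusted p = 1.00 and 0.582). These clusters were named by B cell and T cell markers, so leaving them out removes cells chosen for such genes. Blk was also lost in 6 of the 7 fits that leave out a mouse, all but that without Tnfr1KO replicate 1, and Ms4a1 in the same 6, with adjusted p of 0.0959 to 0.201. With equal cell numbers both were lost (0.296 and 0.128), and Ms4a1 also with RLE factors (0.0512), doublets kept (0.0553), only the 7 libraries (0.0513) or a replicate block (0.0995). In sums over cells of several types, fewer cells of a type and less RNA per cell cannot be told apart.

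In the other classes the shares of the groups overlapped and no difference passed the same test, which so few mice limit. HSC/MPP-like cells were 8.37%, 16.0% and 12.4% in Tnfr1KO and 15.4%, 18.2%, 12.2% and 23.6% in Tnfr2KO, a mean of 12.3% ± 3.83 (SD, n = 3) against 17.3% ± 4.86 (SD, n = 4; exact permutation p = 0.257, adjusted 0.490). The lowest value belongs to Tnfr1KO replicate 1, the library with the most unnamed cells. Granulocyte progenitor-like cells were 18.1% ± 4.62 against 21.1% ± 4.44 (exact p = 0.343), monocyte progenitor-like cells 21.8% ± 5.88 against 18.1% ± 4.24 (exact p = 0.343), and megakaryocyte progenitor-like cells 6.80% ± 2.85 against 9.38% ± 3.10 (exact p = 0.314). Erythroid progenitor-like cells averaged 8.95% and 9.35% (exact p = 0.8286), maturing neutrophil-like cells 2.59% and 1.76% (exact p = 0.486). Basophil/mast cell progenitor-like cells averaged 0.327% and 0.372% (exact p = 0.8286).

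**Figure D5:**
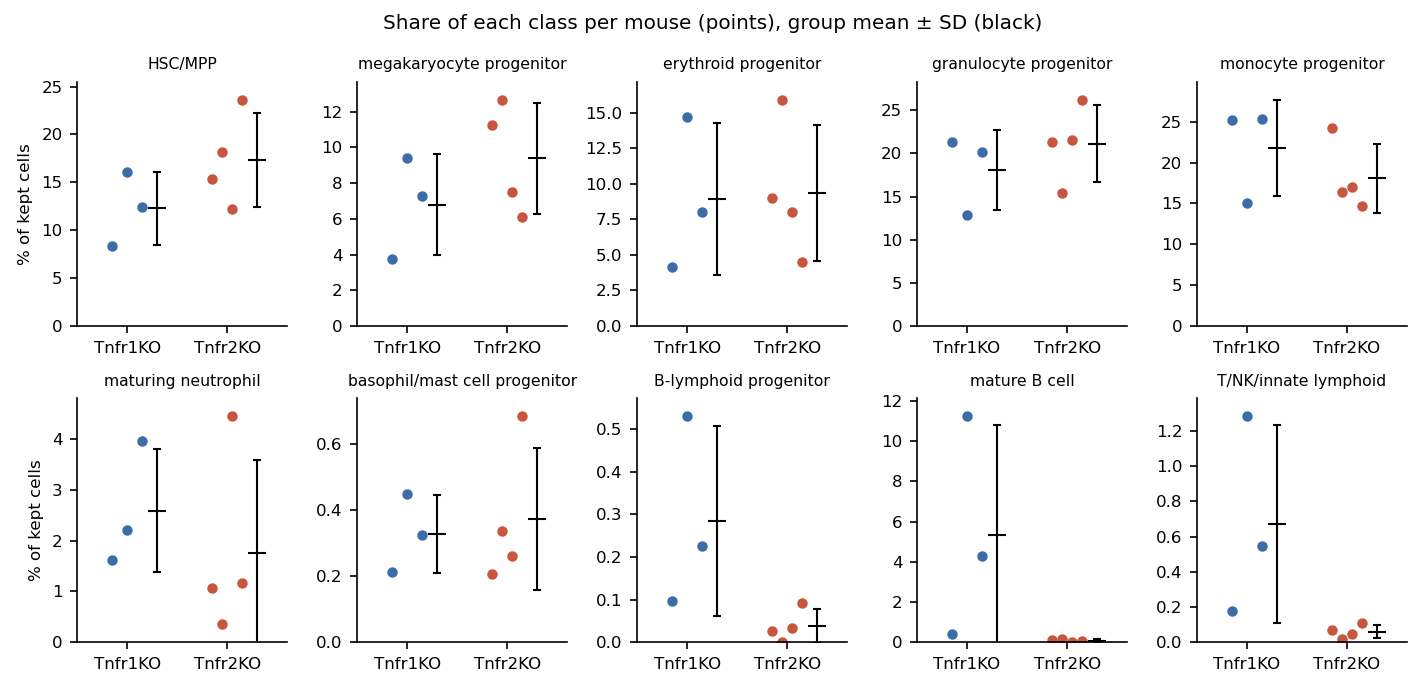
Share of kept cells in each of 10 named classes (percent, 1 point per mouse, bar at the mean with ± 1 SD, cut at 0) in Tnfr1KO (3 mice) and Tnfr2KO (4 mice). The groups overlap in all classes but mature B cell-like, T/NK/innate lymphoid-like and B-lymphoid progenitor-like cells, where each Tnfr1KO mouse lies above each Tnfr2KO mouse.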

How the data were processed

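The libraries are droplet 3′ single-cell RNA libraries (10x Chromium version 3.1), with 12000 cells loaded per lane per the labels' protocols. What the authors deposited are raw counts of UMIs for 32285 genes in each cell barcode, with no normalization. They were made by the authors with Cell Ranger 6.0.0 and bcl2fastq 2.20.0.422 on mm10/GRCm38, per the submitters' processing notes. The annotation release is not given in the sources used here. Counting error alone is covered by the intervals and floors.

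Doublets were removed, at 0.8% per 1000 cells of a library, by how many of 40 neighbours were simulated doublets. Cells were clustered over all 14 libraries (2000 variable genes, 30 principal components, 20 neighbours, Leiden resolution 1). A cluster took a class name when that class had the highest mean standardised marker level, above 0.5, at least 1 marker and no fewer than any other class among its 10 leading genes by fold, and 3 markers detected in 10% of its cells. The clusters without a name, 13 in all, and the shares they hold may differ under other names.

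UMIs were summed per mouse over all cells and per class (at least 20 cells). Sums were tested with edgeR 4.0.16 (R 4.3.3): quasi-likelihood test, TMM factors, filterByExpr, 4 groups in a single model without covariates, two-sided, Benjamini-Hochberg adjustment over all genes of a fit, called below 0.05. On simulated counts for 15447 genes this fit recovered 23.9%, 88.1% and 98.5% of genes changed by 1.5, 2 and 4-fold. Differences between classes used limma 3.58.1 and shares an exact permutation test. Gene lists were given by counts and medians, without a test of the list.

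Genes were named by rule: the targeted genes and Tnf; over all cells up to 30, and per class up to 10, called genes of largest change whose mean reached 10 CPM in a group; genes called in at least 3 classes; and up to 4 called members of a list, or 2 where none was called. Zfp534, Phf11b, Noc2l, Agtrap, Kif1b, Iglc1, Npnt, Pink1 and Slc25a33 were named after their values were seen. Casp8, Traf1, Nfkbia, Cd74, H2-Aa, Cd79a and Igkc also lay outside the rule. A gene that the rule also names is not reported here. The members and lists were chosen with earlier results of these data known. Positions came from RefSeq (GRCm38.p6). Alternatives were DESeq2 1.42.0, RLE factors, no low count filter, only the 7 libraries, a replicate block, kept doublets, Leiden resolution 2, other sets of cells, equal cell numbers and each mouse left out. Those chosen after seeing the data were the bins along chromosome 4, the test of differences between classes, the sums without mature B and T/NK clusters, and the list medians without Tnfr1KO replicate 1.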

Additional observations from a re-analysis of the deposited data

Results flagged for a closer look

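A pair of single values lay apart from their group of 4 by Dixon's criterion (the gap to the nearest mouse over the range of the group). Among 115 groups of 4 tested, chance flags about 1 in 20. Lrmda in megakaryocyte progenitor-like cells of Tnfr2KO replicate 4 was 13.5 CPM, with the next mouse at 11.1 CPM. Tnfrsf1b in erythroid progenitor-like cells of Tnfr2KO replicate 3 was 4.802 CPM, with the next mouse at 3.25 CPM.

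The change between the genotypes differed between cell classes for 7 genes, by limma on each mouse's difference of log2 CPM between classes. Adjustment was within each pair of classes, so this number does not allow for the search over 15 pairs. For Agtrap the change in HSC/MPP-like cells minus that in monocyte progenitor-like cells was -1.002 (adjusted p = 1.86e-04). The change of Agtrap in granulocyte progenitor-like minus HSC/MPP-like cells was 0.99 (adjusted p = 0.00113), and in megakaryocyte minus monocyte progenitor-like cells it was -1.15 (adjusted p = 0.00282). Mean levels of Agtrap went from 35.3 CPM in Tnfr1KO to 23.1 CPM in Tnfr2KO in HSC/MPP-like cells, from 30.1 to 17.7 in megakaryocyte, from 46.0 to 59.8 in granulocyte and from 32.0 to 41.9 in monocyte progenitor-like cells. Kif1b differed by -1.22 between granulocyte progenitor-like and HSC/MPP-like cells (adjusted p = 0.0132). For C1qtnf12 the erythroid change minus that in maturing neutrophil-like cells was -2.92 (adjusted p = 0.0285).

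Pfkp, a glycolytic phosphofructokinase, differed by 0.40 between granulocyte progenitor-like and HSC/MPP-like cells (adjusted p = 0.0340). Tcf7, a T cell and stem cell transcription factor, differed by 2.07 for the same pair (adjusted p = 0.0402), with 1.04, 1.17 and 2.76 CPM in Tnfr1KO and 0.286, 0.283, 0.349 and 0.165 CPM in Tnfr2KO in HSC/MPP-like cells. Gm47601 differed by 1.45 between HSC/MPP-like and megakaryocyte progenitor-like cells (adjusted p = 0.0350). For A230059L01Rik the same pair differed by -1.20 (adjusted p = 0.0241), but the gene had no UMI in Tnfr2KO in either class, so the size depends on the prior count. These tests were not repeated with a mouse left out.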

How the results depend on the processing

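Over 94 results for single called genes and 1365 alternative values, 1116 kept direction and call, 249 lost the call and none changed sign. The 31 calls over all cells became 102 with DESeq2, 19 with equal cell numbers and 18 to 29 with a mouse left out. With only the 7 libraries they were 40 (19 higher, 21 lower), so the split moved. For HSC/MPP-like cells 25 became 58 (DESeq2), 41 (Leiden resolution 2), 78 (no low count filter) and 9 to 36 (a mouse left out). Granulocyte calls became 53 (DESeq2), 74 (no filter) and 22 to 41, monocyte calls 50, 64 and 15 to 41. Erythroid calls were 8 with DESeq2 and 2 to 4 with a mouse left out, megakaryocyte calls 3 to 12. Neutrophil calls were 1 with doublets kept, 21 without the filter and 0 to 3. With doublets kept the cells were also clustered anew, so the classes held other cells. The cause of these shifts was not tested, apart from the smaller number of samples where a mouse is left out.

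Whether replicate numbers pair the mice was not settled. Same-numbered deviations had r of 0.150, 0.223 and 0.0422, and differently numbered ones had r of -0.252 to 0.108. With a replicate block, calls were 38 over all cells (19 in each direction), 17 for HSC/MPP-like, 3 for erythroid and 4 for megakaryocyte cells. Tnfrsf1b in HSC/MPP-like cells was -0.97 with the block (adjusted p = 0.0771), -0.98 with only the 7 libraries (0.0907) and -1.11 to -0.81 with a mouse left out. Tnfrsf1a in monocyte cells was 0.64 with DESeq2 (adjusted p = 0.00687) and 0.64 without the filter (0.0356).

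Small differences that changed sign were those of Dnmt3a in erythroid cells (0.14 at resolution 2, 0.10 with doublets kept, 0.22 with the block, -0.16 to 0.0595 with a mouse left out) and megakaryocyte cells (-0.0167 at resolution 2, -0.0424 with doublets kept, -0.0269 to 0.15). So did Tnfrsf1a in erythroid cells (0.0339 with doublets kept, -0.25 to 0.0569) and, with a mouse left out, Tnf in neutrophil (-0.50 to 0.0379) and monocyte cells (-1.26 to 0.20). Shares changed sign for basophil/mast (-0.0583 to 0.105 percentage points) and erythroid cells (-0.365 at resolution 2, -2.002 to 3.28). With only the 7 libraries, a fit that called more genes than the main fit, the interferon, MHC class II, T/NK and monocyte lists had 1 call each. The mature B cell list had 0. In the main fit these 5 lists held 43, 12, 29, 22 and 19 tested genes, and 0.199% of all genes were called. Within 10 Mb of Tnfrsf1b, 16 of 191 other genes were called in the main fit (8.38%), against 0.0908% of genes elsewhere.

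In the simulation over all cells, 1.5-fold changes were mostly missed; no class was simulated.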

Other observations

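Prdm16, a stem cell regulator on chromosome 4 that lay outside the rule for naming genes and was chosen after its values were seen, split the Tnfr1KO mice. Over all cells it had 0.161, 9.11 and 7.38 CPM in Tnfr1KO and 0.492, 0.497, 0.533 and 0.335 CPM in Tnfr2KO (edgeR adjusted p = 0.409). In HSC/MPP-like cells it had 1.39, 12.1 and 10.1 CPM against 1.65, 1.94, 2.80 and 1.65 CPM (adjusted p = 0.263). In monocyte progenitor-like cells Tnfr1KO replicate 1 had no UMI of Prdm16, and replicates 2 and 3 had 9.22 and 7.94 CPM (adjusted p = 0.132).

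Unnamed clusters held different shares of the mice. A cluster led by Gm42418, Lars2 and AY036118, in which the median cell had 0.0825 times the median UMIs of its own library, took 52.6% of its cells from Tnfr1KO replicate 1. Without the clusters led by these genes, 31 genes were called over all cells, all of them among the 31 called with those clusters.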
